A study of Mus musculus with 2 samples.

Results

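The 10 genes described here encode subunits of the mouse BAF complex that differ between neural progenitors and neurons, or that form its ATPase and scaffold. They are the progenitor subunits Actl6a, Phf10 and Ss18, the neuronal subunits Actl6b, Dpf1, Dpf3 and Ss18l1, the ATPases Smarca2 and Smarca4, and the scaffold subunit Smarcc2. The rule lists them by symbol and uses no measured value, and all 10 were found among the 43346 genes of the tables. Total RNA longer than 200 nt was sequenced from midbrain of B6NCrl embryos at 13.5 days, healthy and otherwise untreated, in 2 libraries of 10 ng RNA each. The tissue of each library pools male and female embryos, both libraries carry 1 donor entry in the labels, and the biosamples are separate. They are biological replicates 1 and 2 in the labels, and the series has no other tissue, age or genotype, so each comparison below is between genes within the tissue or between the replicates.

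The BAF complex is the mammalian SWI/SNF machine, which uses ATP to move and evict nucleosomes and so changes which DNA other factors can reach. It is put together from families of paralogs, whose members can take the same position. In dividing neural progenitors the complex carries BAF53a (Actl6a), BAF45a (Phf10) and SS18. When the cells leave the cell cycle and become neurons, these are replaced by BAF53b (Actl6b), BAF45b or BAF45c (Dpf1 or Dpf3) and CREST (Ss18l1). The repressor REST and the microRNAs miR-9* and miR-124 are part of the textbook account of that exchange, in which the microRNAs act on the Actl6a transcript.

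The libraries held 31436613 and 40215359 expected reads on genes, and 14878 genes had a TPM (a transcript level scaled to transcript length and to the library) of at least 1 in both, which was the rule for detection. All 13 neuronal, 10 neural progenitor, 7 dividing-cell and 6 midbrain markers listed for the check of the tissue were detected. The summed TPM of the neuronal markers was 5023 and 4579, that of the progenitor markers 2233 and 2153 and that of the dividing-cell markers 675.8 and 636.6. The tissue therefore held RNA of both cell states to which the subunits are assigned. Of 7 striated muscle markers 1 was detected, Acta1 at 2.58 and 1.85 TPM. Actc1 was at 3.34 TPM in replicate 1 and 0.79 TPM in replicate 2. Myod1 was at 0.03 and 0.02 TPM and Myog at 0.04 and 0.05 TPM. Other cell types were present: all 3 erythroid, 3 endothelial and 3 microglial markers were detected. The erythroid markers summed to 3146 and 3122 TPM, nearly all from the embryonic globin Hbb-y (3124 and 3094 TPM), the endothelial ones to 37.3 and 39.5 TPM and the microglial ones to 18.2 and 18.9 TPM. The 3 meningeal collagen and lumican genes summed to 190.8 TPM in replicate 1 and 235.1 TPM in replicate 2, and the part of any of these cells in the levels below was not tested. Because whole tissue was measured, a lower level can mean fewer cells of a type or less RNA per cell, and these cannot be told apart.

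All 10 subunits were detected, against 34.3% of all genes. Actl6b was the most abundant, at 187.4 and 181.3 TPM in replicates 1 and 2, followed by Dpf1 at 160.3 and 162.7 TPM. Phf10, at 15.8 and 15.2 TPM, was the least abundant. Neuronal and progenitor subunits were thus spread through the whole range and not separated into a high and a low group. Smarca4 (142.1 ± 1.24 TPM, mean ± SD, n = 2 here and below), Smarcc2 (129.5 ± 4.39), Actl6a (119.1 ± 4.42) and Smarca2 (103.3 ± 8.56) lay next in order. Ss18 stood at 48.4 ± 0.84, Ss18l1 at 42.5 ± 3.41 and Dpf3 at 20.8 ± 0.21 TPM. The order of the 10 genes was the same in both libraries, and no 2 neighbours overlapped in their ranges over the libraries. The TPM intervals deposited by the authors, for which no level is given, did overlap for Smarcc2 with Actl6a and for Dpf3 with Phf10 in at least 1 library. Those intervals do not always hold the TPM itself. For Smarca4 in replicate 1 the interval was 135.1 to 139.5, below its level of 141.2 TPM. They are therefore no limits of the levels given here. Among detected genes, Actl6b was above 94.3% and Phf10 above 48.4%, so even the lowest of the 10 sat near the middle of the detected genes. The level of Phf10 used here counts all its transcript models, coding or not.

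**Figure D1:**
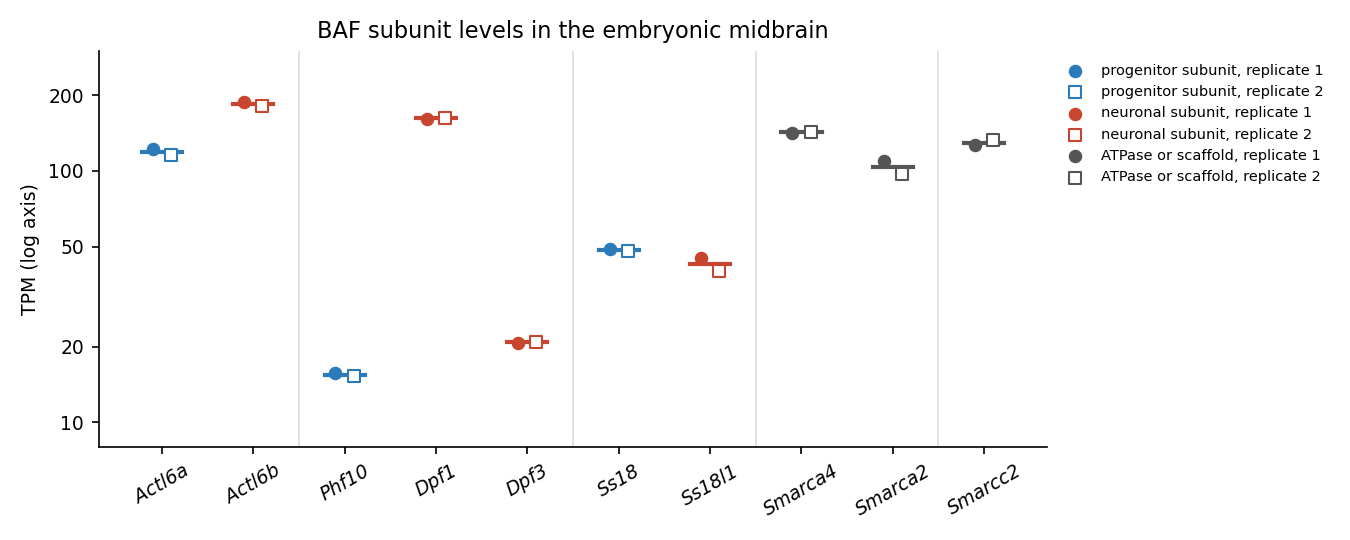
TPM of each subunit on a log axis, with a filled circle for replicate 1, an open square for replicate 2 and a bar at their mean, grouped by paralog family. Dpf1 and Phf10 stand farthest apart within a family, at 161.5 and 15.5 TPM, while Ss18 and Ss18l1 lie close together.

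Summed over genes, the neuronal subunits stood above the progenitor subunits, but the difference of their mean log levels depended on which members were counted. The 4 neuronal subunits reached 413.3 TPM in replicate 1 and 405.1 in replicate 2, and the 3 progenitor subunits 187.0 and 179.1. The ratio of these sums was 2.21 and 2.26, and it compares 4 genes with 3. The mean log2(TPM + 0.1) of the neuronal subunits exceeded that of the progenitor subunits by 0.67 and 0.68. That difference of means rests on single members. Its mean of 0.68 fell to −0.08, with the direction turned, when Phf10 was left out, and was 0.22 without Actl6b, 0.29 without Dpf1, 1.27 without Dpf3 and 1.38 without Actl6a (alternatives chosen after seeing the data, except that for Dpf3). No p-value is given for a score over chosen genes. The families did not share 1 pattern, as the pairs below show.

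For each pair, the difference was taken within a library as log2(TPM + 0.1) of a gene minus that of its paralog, and tested with limma across 14877 detected genes, with Benjamini-Hochberg adjustment over them. With 2 libraries an exact permutation test of 1 gene cannot give a p below 0.5. Expected reads of Actl6a, Phf10, Ss18 and Smarca4 were not whole in at least 1 library (tolerance 0.005), since reads that match several genes were shared out, and their levels are uncertain to that extent. Genes differ widely in level, so nearly all were called different from any 1 reference gene. The share called at an adjusted p under 0.05 was 96.9% against Actl6a, 91.3% against Phf10, 93.5% against Ss18 and 95% against Smarcc1. A call therefore says little by itself, and the sizes of the differences carry the comparison.

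Actl6a and Actl6b encode actin-related subunits, which bind beside the ATPase. The progenitor gene Actl6a (ENSMUSG00000027671, chr3:32706298-32726973 of GRCm38, plus strand) was measured at 122.3 TPM in replicate 1 and 116.0 in replicate 2. The neuronal gene Actl6b (ENSMUSG00000029712, chr5:137553517-137569582, plus strand) was at 187.4 and 181.3 TPM. Actl6b was above Actl6a in both libraries without overlap. The difference was 0.63 log2 units (SE 0.061, a 1.55-fold higher level, adjusted p = 0.00128 by limma), and the libraries gave 0.62 and 0.64. An exon of Mrpl47, a mitochondrial ribosomal protein gene at 29.9 and 31.4 TPM, overlaps Actl6a by 452 bp on the opposite strand, the longest overlap of any single exon. The sources used here do not give whether reads were counted by strand, so the level of Actl6a is uncertain to that extent.

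The microRNA strands of the miR-9 hairpins are shown here because miR-9* (now miR-9-3p) is the strand known to act on Actl6a, with the seed, bases 2 to 8, in capitals. Both are from RefSeq on GRCm38.p6, where 3 genes carry each sequence.
mmu-miR-9-5p: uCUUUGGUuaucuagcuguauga
mmu-miR-9-3p: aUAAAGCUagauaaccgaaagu
The strands have different seeds. The 3′ UTR of Actl6a-201, the leading Actl6a transcript, holds 1 match to the miR-9-3p seed, starting 38 bases into its 371 bases. The 30 bases around it, chr3:32726625-32726654 of GRCm38 on the plus strand, are shown as genomic DNA with the seed match in capitals.
Actl6a-201: cacctcaacgtctgtAGCTTTAgtacactc
With the longest annotated 3′ UTR taken for each gene, 43 of 1798 UTRs of like length (within 20%), or 2.39%, held that match. The same letters occurred in 1 other member, once in the 3′ UTR of Smarca2-220, within chr19:26777487-26777516 on the plus strand, where 7.29% of UTRs of like length held them. Smarca2-220 is not among the 19 Smarca2 transcripts quantified in these libraries, so it has no measured level. No member held the match to the miR-9-5p seed in the UTR searched, while Rest had 1, within chr5:77286161-77286190 on the plus strand, where 28.5% of UTRs of like length held it; those 30 bases follow.
Rest-201: acttttctgaggcaaACCAAAGgtatattt
A match is a description of letters and not a measured target site. MicroRNAs are shorter than the RNA in these libraries, so only their host genes could be read.

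The host transcripts of these microRNAs were present in the tissue. C130071C03Rik, which spans the Mir9-2 hairpin, was at 57.8 and 47.8 TPM, and Mir9-3hg was at 51.6 and 49.2 TPM. The miR-124 host genes Mir124a-1hg and Mir124-2hg were at 121.9 ± 3.58 and 143.5 ± 13.5 TPM. Rest, the gene of the repressor, was at 6.54 and 6.68 TPM, below each of the 10 subunits in both libraries. Actl6a RNA was thus abundant in a tissue that also held the host transcripts of both microRNAs. Whole tissue does not show whether the same cells held them.

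Of the 6 pairs tested, the largest difference was in the BAF45 family, whose proteins carry paired PHD fingers that read histone tails. The progenitor gene Phf10 (ENSMUSG00000023883, chr17:14945009-14961273, minus strand) was measured at 15.8 and 15.2 TPM. The neuronal gene Dpf1 (chr7:29303951-29318243, plus strand) was at 160.3 and 162.7 TPM, and Dpf3 (chr12:83213745-83487716, minus strand), also a neuronal form, at 20.67 and 20.97 TPM. Dpf1 stood about an order of magnitude above Phf10 in both libraries, while Dpf3 was closer to it. The log2 difference was 3.37 for Dpf1 (SE 0.063, 10.4-fold, adjusted p = 6.95e-05 by limma). For Dpf3 it was 0.42 (SE 0.063, 1.34-fold, adjusted p = 0.00573), with 0.39 and 0.46 in the libraries. The family's other member Dpf2, which is widely expressed and assigned to neither state, stood at 122.7 and 120.0 TPM, 2.96 log2 units above Phf10 (adjusted p = 7.02e-05). The size for Dpf3 depends on the transcripts counted: over all coding models, chosen after seeing the data, Dpf3 was 2.16 log2 units (4.47-fold) and Dpf1 4.99 (31.9-fold) above Phf10. Phf10 overlaps exons of 1600012H06Rik (22.2 and 21.8 TPM) on the opposite strand, by at most 176 bp for any single exon. The low level of Phf10 may therefore include reads of that gene, which was not tested.

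Promoter windows were read for 9 members, Ss18 not being used here. Those of Actl6b, Dpf1 and Dpf3 are printed because they were the windows among the 9 that held the CCAAT box. They are the 250 bases before the RefSeq start (GRCm38.p6), 5′ to 3′ on the gene's strand. Capitals mark the CCAAT box (CCAAT or ATTGG) and the GC box (GGGCGG or CCGCCC), each searched on both strands with overlapping matches counted.
Actl6b at chr5:137553296-137553545: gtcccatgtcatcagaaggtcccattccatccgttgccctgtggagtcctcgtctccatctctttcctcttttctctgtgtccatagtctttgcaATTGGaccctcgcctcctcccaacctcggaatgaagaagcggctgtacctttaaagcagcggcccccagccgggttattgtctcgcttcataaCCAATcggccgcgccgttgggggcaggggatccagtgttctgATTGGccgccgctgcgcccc
Dpf1 at chr7:29303755-29304004: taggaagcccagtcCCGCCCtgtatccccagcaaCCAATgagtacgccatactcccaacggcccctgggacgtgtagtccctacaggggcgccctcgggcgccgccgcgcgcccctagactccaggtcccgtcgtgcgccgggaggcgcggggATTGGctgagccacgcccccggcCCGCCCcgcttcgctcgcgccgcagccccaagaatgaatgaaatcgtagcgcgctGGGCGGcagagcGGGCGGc
Dpf3 at chr12:83487737-83487986, minus strand: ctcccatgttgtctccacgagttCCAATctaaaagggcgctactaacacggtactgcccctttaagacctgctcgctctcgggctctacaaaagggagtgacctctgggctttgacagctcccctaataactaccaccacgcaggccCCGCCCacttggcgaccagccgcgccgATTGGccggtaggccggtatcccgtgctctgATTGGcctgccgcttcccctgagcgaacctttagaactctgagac
Actl6b held 3 CCAAT boxes and no GC box, Dpf1 2 and 4, and Dpf3 3 and 1. The fourth neuronal gene, Ss18l1, held no CCAAT box and 1 GC box. Actl6a, Phf10, Smarca2, Smarca4 and Smarcc2 held no CCAAT box and 3, 5, 2, 3 and 0 GC boxes. Of 32851 promoter windows of that length, 33.8% held at least 1 CCAAT box and 32.7% at least 1 GC box. The CCAAT box, in 3 of the 9 members, was thus about as frequent as in all windows. The GC box was in every member read but Actl6b and Smarcc2, a larger share than in all windows. The windows read were also richer in CpG (C followed by G), with 15 in Actl6b to 51 in Phf10 against a median of 6. Whether the GC box share goes beyond that base content was not tested. With 9 genes these counts are a description only. The left and right parts of the RE1 element that REST binds were searched as TTCAGCAC and GGACAG, present in 0.962% and 18.7% of windows, and the ETS core CCGGAAG, present in 6.91%. The first was in no member's window, the second once in that of Smarcc2 and the ETS core once in that of Smarca2.

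In the SS18 family the 2 forms lay close together. Its proteins are transcriptional coactivators without a DNA-binding domain of their own. Ss18, the progenitor form (ENSMUSG00000037013), was measured at 49.0 and 47.8 TPM. Ss18l1, which encodes CREST, a calcium-responsive coactivator of neurons (chr2:180042509-180070201, plus strand), was at 44.9 and 40.1 TPM. Ss18l1 was lower in both libraries and the pair did not overlap. The log2 difference was −0.19 (SE 0.071, 1.14-fold lower, adjusted p = 0.0671 by limma), which did not pass the threshold, and the libraries gave −0.13 and −0.25. It passed when genes with a TPM under 5 were left out (adjusted p = 0.0316) and when limma's spread followed the level (adjusted p = 0.0202), with the same difference. Ss18l1 was the only neuronal subunit measured below its progenitor paralog in these libraries.

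**Figure D2:**
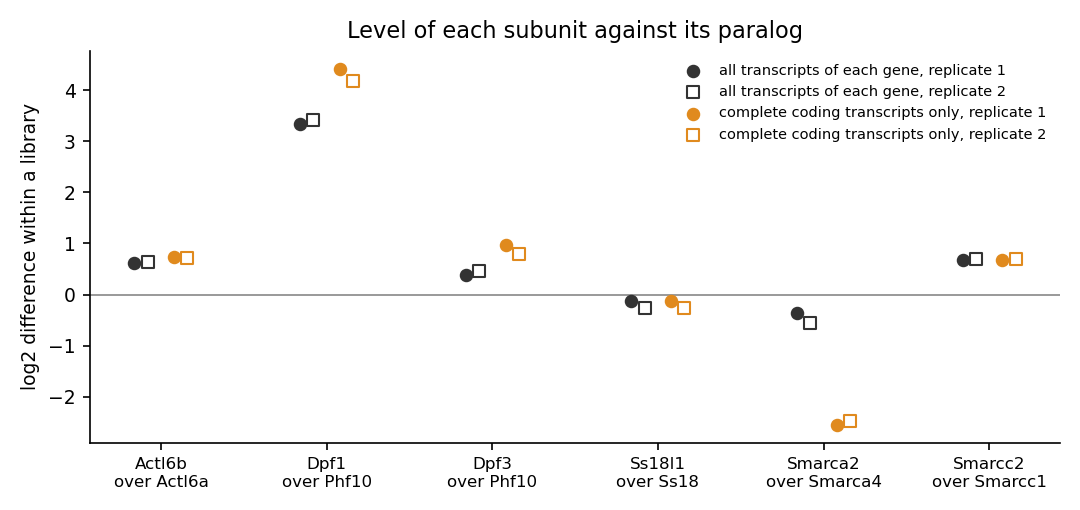
Log2 difference of each subunit from its paralog within each library, with filled circles for replicate 1 and open squares for replicate 2. Black points use all transcripts of a gene and orange points only complete coding transcripts; the Smarca2 difference from Smarca4 moves from −0.46 to −2.51 and that of Dpf1 from Phf10 from 3.37 to 4.30.

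The ATPases Smarca4 (BRG1) and Smarca2 (BRM) are the alternative motors of the complex, and mouse embryos need Smarca4 but can develop without Smarca2. Smarca4 (chr9:21616169-21704230, plus strand) was measured at 141.2 and 143.0 TPM and Smarca2 (chr19:26605050-26778322, plus strand) at 109.3 and 97.2 TPM. Smarca2 was lower in both libraries, with log2 differences of −0.37 and −0.56 (mean −0.46, SE 0.092, 1.38-fold lower, adjusted p = 0.00325 by limma). The reads told a different size: Smarca4 held 15642 and 21226 expected reads and Smarca2 3419 and 4550, a ratio of 4.58 and 4.67. TPM divides reads by the length of the transcripts to which they were assigned. That effective length was 1561 and 1751 nt for Smarca2 against 5526 and 5553 nt for Smarca4.

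Most of the Smarca2 level came from short transcript models inside the gene. Of its 19 transcripts, 12 start over 100000 nt downstream of the first start, and they held 89.4% and 86.3% of its TPM. The leading one, Smarca2-215, is 1460 nt long, is annotated as a target of nonsense-mediated decay, the pathway that degrades RNAs with an early stop codon, and held 46.4% ± 1.12 of the gene's TPM. Its 3 coding transcripts of at least 4000 nt, which begin at the gene's 5′ end, held 10.1 and 11.6 TPM, or 9.22% and 11.9% of the gene's level but 34.0% and 39.1% of its reads. The 3 such transcripts of Smarca4 held 139.5 and 141.4 TPM, 13.8-fold and 12.2-fold more. The minimum of 4000 nt was chosen with the transcript lengths known. Such shares are estimates from short reads that several transcripts of a gene can hold in common.

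The scaffold subunit Smarcc2 (BAF170) pairs with Smarcc1 (BAF155) at the base of the complex. Smarcc2 (chr10:128459248-128490482, plus strand) was measured at 126.4 and 132.6 TPM and Smarcc1 at 78.8 and 81.7 TPM. Smarcc2 was higher in both libraries by nearly the same amount. The log2 difference was 0.69 (SE 0.112, 1.61-fold, adjusted p = 7.94e-07 by limma), with 0.68 and 0.70 in the libraries. With no TPM minimum the adjusted p (limma) was 0.012. After the spread was shared across genes, the test had 32.3 degrees of freedom against Smarcc1 and 3.33 against Phf10. Adjusted p-values against different reference genes therefore do not rank the pairs. Exons of Dhx30, an RNA helicase gene at 70.9 and 68.5 TPM, overlap Smarcc1 on the opposite strand, by at most 123 bp for any single exon.

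The transcripts behind each gene's level differed among the subunits. Coding transcripts with a complete model, that is with an annotated start and end of the coding sequence, held 100% of the TPM of Ss18, Ss18l1 and Smarcc2 and 98.8% ± 0.125 of Smarca4. The share was 83.9% ± 3.15 for Actl6b and 78.0% ± 1.05 for Actl6a, where retained introns held 7.61% ± 1.10 and 16.6% ± 0.726. It was lower in the BAF45 family, at 57.1% ± 3.19 for Dpf1, 40.9% ± 1.06 for Dpf3 and 29.6% ± 2.84 for Phf10, and lowest for Smarca2 at 24.0% ± 3.20. In Dpf3 the other 59.1% ± 1.06 lay on coding models with an open end. In Phf10 it lay on models annotated with a retained intron (40.9% ± 2.49) or as a target of nonsense-mediated decay (29.5% ± 0.354). The leading transcript was the same in both libraries for 9 of the 10 genes. The exception was Phf10, where Phf10-203, of the decay class, led in replicate 1 and the coding Phf10-201 in replicate 2, each at close to 30% (29.8% and 31.6%).

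**Figure D3:**
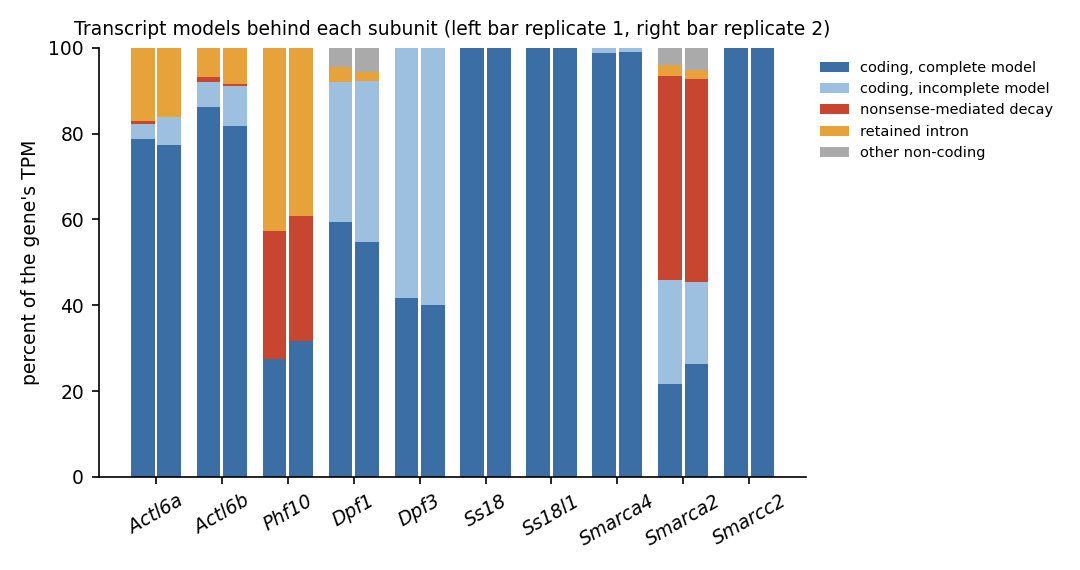
Stacked bars give the percent of each gene's TPM on each class of transcript model, with replicate 1 left and replicate 2 right. Complete coding models fill the bars of Ss18, Ss18l1 and Smarcc2 but 24.0% of Smarca2 and 29.6% of Phf10.

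With complete coding transcripts only, a setting chosen after seeing the data, every pair kept its direction. The log2 difference was 0.73 for Actl6b, 4.30 for Dpf1 (19.7-fold), 0.88 for Dpf3 (1.84-fold), −0.19 for Ss18l1 (adjusted p = 0.0498, now past the threshold), −2.51 for Smarca2 (5.69-fold lower) and 0.69 for Smarcc2. Coding transcript levels of Phf10 were then 4.35 and 4.81 TPM, of Dpf1 95.2 and 89.2 TPM and of Dpf3 8.60 and 8.41 TPM. Counting every coding model, complete or not, gave 0.77, 4.99, 2.16, −0.19, −1.59 and 0.69 in the same order. The 6 directions were thus the same under both choices of transcripts, while the sizes for Dpf1, Dpf3 and Smarca2 were not. The complete models of Smarca2 include short ones that start inside the gene, among them Smarca2-203 (1858 nt, 9.28 and 7.99 TPM). With coding transcripts of at least 4000 nt only, Smarca4 was 13.8-fold and 12.2-fold above Smarca2, as given above.

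Among the 21 other subunits listed for BAF and its relatives PBAF and GBAF, all 21 were detected, and their median of 55.0 TPM was lower than the 111.2 TPM of the members. Actb, which supplies the complex with actin and the cell with its cytoskeleton, was highest at 5590 ± 808 TPM. The core subunits Smarce1 (309 ± 26.6) and Smarcb1 (260 ± 10.9), and Pbrm1 of PBAF (141 ± 1.14), followed. Bicral, a subunit of GBAF, was lowest at 5.64 TPM in both libraries. Set against Smarca4 with the same limma test, 6.35% of all genes were called higher and 90.9% lower. Of the other 9 members 1 was higher (Actl6b, log2 difference 0.37, adjusted p = 0.00553), 6 were lower, and Dpf1 (0.18, adjusted p = 0.0724) and Smarcc2 (−0.13, adjusted p = 0.166) were not called. Of the 21 other subunits 3 were higher (Actb, Smarce1 and Smarcb1), 17 were lower, and Pbrm1 was not called. The median difference from Smarca4 was −0.46 for the members and −1.37 for the others.

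**Figure D4:**
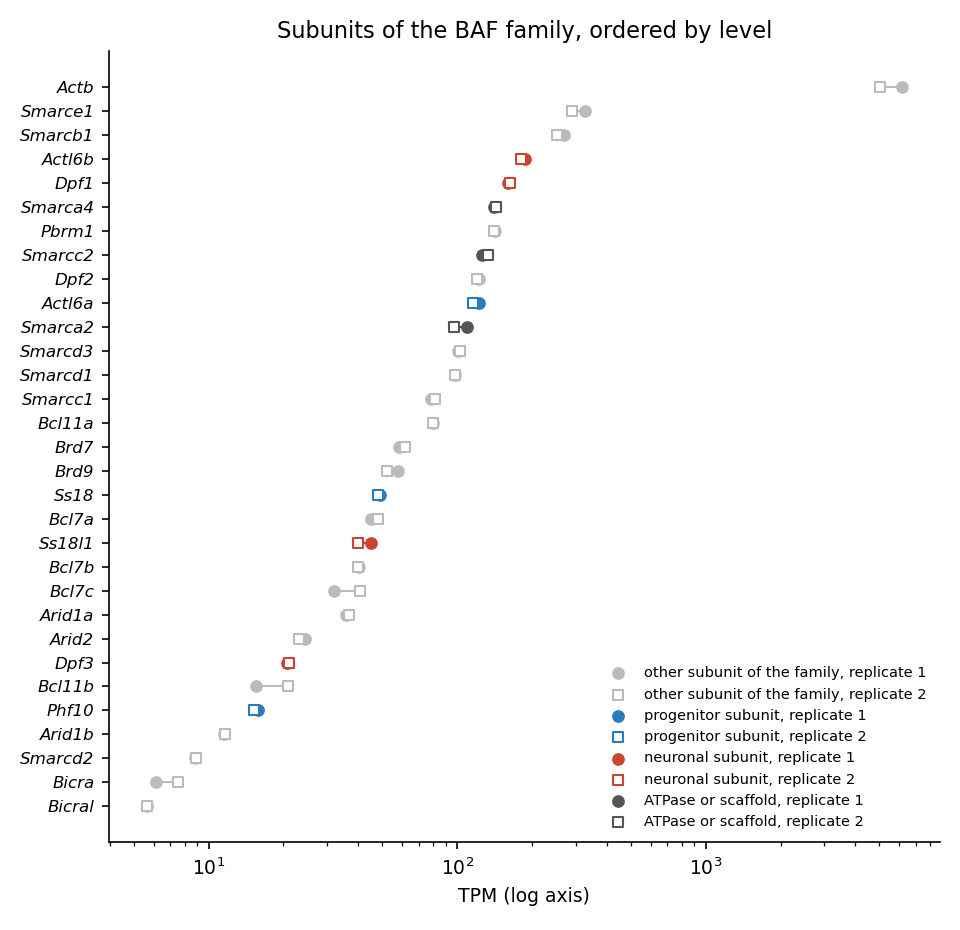
TPM of the 31 subunits on a log axis, ordered by mean level, with a filled circle for replicate 1 and an open square for replicate 2; colours mark progenitor, neuronal and the other members. The members run from Phf10 at 15.5 to Actl6b at 184.3 TPM, inside the range of the other subunits from Bicral to Actb.

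Between the replicates the members differed little. For each gene the ratio of replicate 2 to replicate 1 was taken from expected counts after TMM scaling, with an exact 95% interval that covers counting error only. A test is not possible with a single library per side. None of the 10 members reached a log2 ratio of 0.32 in either direction, against 7.68% of 14366 genes higher in replicate 2 and 4.17% higher in replicate 1. None reached 2-fold, against 0.731% of genes. The largest changes were Ss18l1 (3818 and 4547 reads, ratio 0.922, interval 0.883 to 0.963) and Smarcc2 (11625 and 16273 reads, ratio 1.083, interval 1.058 to 1.110). The intervals of Actl6b (0.922 to 0.993) and Smarca4 (1.029 to 1.072) also lay to 1 side of 1, and those of the other 6 members spanned it. The median absolute log2 ratio was 0.043 over the members and 0.10 over all 14366 genes. The members averaged from 631.5 (Phf10) to 18434 (Smarca4) reads, while the 14366 genes go down to a mean of 50. Given that, and with only 10 members, these shares and medians do not set the members apart from other genes. Of the 21 other subunits, Bicra passed 0.32, higher in replicate 2 (ratio 1.27), and none passed it in the other direction. For Smarca2, the ratio of TPM pointed the other way (−0.17 on the log2 scale) from that of the reads (0.04), beside the shift in effective length given above.

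**Figure D5:**
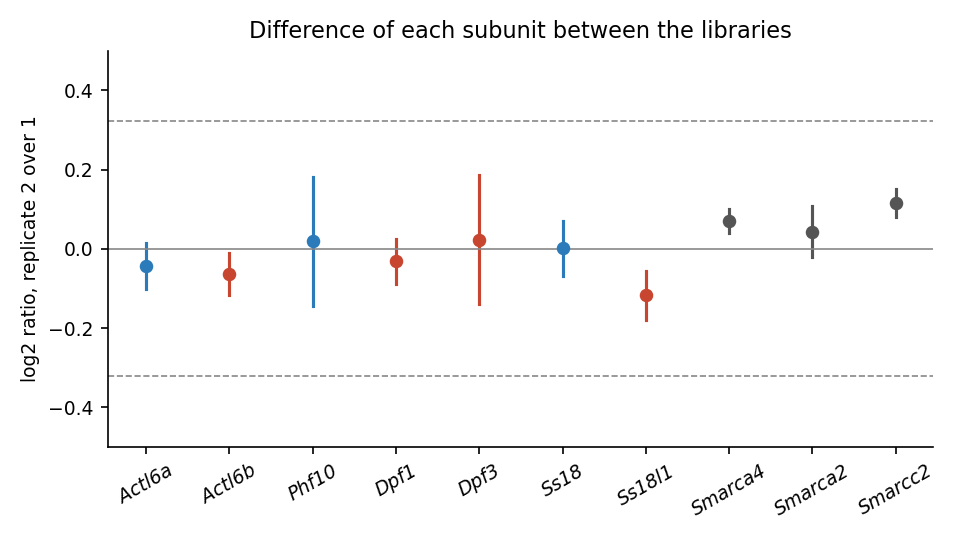
Log2 ratio of replicate 2 over replicate 1 for each member after TMM scaling, with exact 95% intervals for counting error as bars; colours are those of the plot of levels, dashed lines mark 0.32 in either direction and the solid line no difference. All 10 points lie between −0.12 and 0.12, inside the dashed lines.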

How the data were processed

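The tables rest on assembly mm10 with GENCODE M4, per the text deposited beside them; the sources used here name no aligner and no counting strand. The expected counts deposited by the authors are estimated reads per gene, shared out where reads match several genes. The deposited TPM values are scaled to length and library with spike-ins included, which with tRNA entries took 5.36% and 9.39% of TPM. The authors also deposited TPM interval bounds (used as a score without a stated level), FPKM, and the percent of a gene's level on each transcript, per the file headers.

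Symbols, positions and transcript types came from GENCODE M21 on GRCm38. Levels were compared as log2(TPM + 0.1) with limma 3.58.1 in R 4.3.3, intercept only, 1 residual degree of freedom per gene, two-sided; the reference gene's own difference between libraries enters every gene's spread, and p-values cover the spread of these 2 libraries only. Rounded expected counts were scaled by TMM (edgeR 4.0.16) and, as an alternative, DESeq2 1.42.0; intervals are Clopper-Pearson. Ratio rules used genes averaging at least 50 counts over the libraries, and a log2 ratio of 0.32 or 1 in size. The fit against Actl6a and the ratio rule were tested on simulated data, with errors drawn independently for each gene. The fits against the other reference genes were not. Members, lists and tests were chosen with earlier results of these data known. The rule for names took all members, the other subunits of members' families, the 4 highest and the lowest other subunit, Rest and microRNA host genes; Bicra was named after its value was seen. Without molecular identifiers, reads do not count independent molecules.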

Additional observations from a re-analysis of the deposited data

How the results depend on the processing

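The 6 paralog pairs kept their direction under other pseudocounts, TPM minimums, posterior mean TPM, counts per effective length, FPKM, a limma trend, each library alone and both transcript choices added after seeing the data. Only the call of Ss18l1 against Ss18 changed. Its log2 difference of −0.19 passed the threshold with a TPM of at least 5, with the trend and with complete coding transcripts, and its adjusted p (limma) ran from 0.0202 to 0.163 over the alternatives. The neuronal minus progenitor difference of 0.678 was 0.773 as a difference of medians, 1.161 from summed TPM, 0.665 with a pseudocount of 1, 0.667 from posterior mean TPM and 1.271 without Dpf3. Leaving out each other member, added after seeing the data, gave 0.224 (Actl6b), 0.288 (Dpf1), 0.930 (Ss18l1), 1.383 (Actl6a), 0.735 (Ss18) and, reversed, −0.084 (Phf10); each library alone gave 0.672 and 0.684. No member passed a log2 ratio of 0.32 between the replicates under the scalings, the TPM ratio or the count minimums run. Genes past 2-fold rose from 105 to 534 when the minimum fell from 50 to 10 counts and to 4684 with none, and genes past 0.32 from 1702 to 3737 and 9717; these settings admit genes with few reads. The ratios of Smarca2, Smarca4 and Smarcc2 left their counting intervals when taken from TPM. The order of the members held under posterior mean TPM and under TPM rescaled to genes. It changed with complete coding transcripts only, where Dpf1 (95.2 and 89.2 TPM) lay below Smarca4, Smarcc2 and Actl6a (96.3 and 89.65 TPM). Smarca2 (23.7 and 25.5 TPM) then lay below Ss18 (49.0 and 47.8 TPM) and Ss18l1 (44.9 and 40.1 TPM). Phf10 and Dpf3, with 547 to 726 reads a library, have the widest counting intervals. No paired analysis was possible because the libraries form 1 group.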
